A study of Mus musculus with 2 samples.

Results

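TRIM genes encode proteins built on a tripartite motif of a RING finger, 1 or more B-box domains and a coiled coil. They were taken here as all genes of the deposited matrix whose symbol is Trim followed by a number and at most 1 letter. There were 68 such genes among 32285, and each of the 68 identifiers matched an entry of GENCODE vM21 (assembly GRCm38, or mm10). Single-nucleus RNA was measured in tumour-associated macrophage nuclei sorted from PyMT mammary tumours, a model driven by the polyoma middle T antigen. The samples were 1 of control-PyMT and 1 of MYC-PyMT, the latter with S100a8-cre and Rosa26-LSL-MYC, a MYC allele that cre switches on; S100a8 is a gene of neutrophils and other myeloid cells. All mice of both groups ate a low protein diet. Irradiation of the recipients took place at 7 weeks of age, and the marrow they then received came from mice with Fcgr1-cre and Rosa26-LSL-H2B-mCherry/+, so that the nuclear mCherry marks a history of Fcgr1 expression. The diet began 2 weeks after the transfer and lasted 6 weeks. Irradiated hosts can keep macrophages of their own, which lack mCherry. The matrix joins 2 capture wells, and no label ties a well to a genotype, so the 2 genotypes were not compared. Every value below describes 1 pooled sample, and well 1 and well 2 are given as unmapped wells. There are no replicates, and each interval is an exact 95% interval that covers counting error only.

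Most TRIM proteins are ubiquitin ligases. Their RING finger takes ubiquitin from a conjugating enzyme, the coiled coil pairs 2 chains, and the C-terminal domain, often a PRY-SPRY domain, chooses the target. Many members act in antiviral defence: TRIM25 modifies the RNA sensor RIG-I, TRIM5 proteins bind retroviral capsids, and TRIM21 binds antibody inside cells. Others act in transcription, in the cytoskeleton or in muscle, and many are induced by interferon.

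After filtering, 1812 nuclei with 7342649 unique molecular identifiers (UMIs, counts of distinct molecules) remained, and TRIM genes held 15634 of these. A nucleus was called macrophage with 3 or more UMIs of Ptprc, Csf1r, Adgre1 and Mertk in sum, and epithelial when Epcam, Krt8, Krt18, Cdh1 and Elf5 summed to 1000 CPM or more (CPM is a count scaled to the same total in every nucleus or set). The macrophage rule took 1052 nuclei (727 in well 1 and 325 in well 2) with a median of 3144 UMIs. The epithelial rule took 363 nuclei (333 and 30) with a median of 1199 UMIs, and the 5 deepest of them held 16.2% of the set's UMIs. A further 78 nuclei met both rules and were left out of both sets, and 319 met neither. At the edge of the rules, 93 macrophage nuclei had exactly 3 UMIs of the 4 genes, and 89 nuclei outside the epithelial set had 2. Of the epithelial nuclei, 77 had 1 UMI of the 5 genes. The wells shared 9 barcode sequences.

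In sum, markers that neither rule used fitted both names, though single markers crossed between the sets. The macrophage list (12 genes, such as Cd68, C1qa and Dock2) summed to 5839 CPM in macrophage nuclei, where 12 of 12 genes stood at 10 CPM or more. It summed to 667 CPM in epithelial nuclei, where 10 of the 12 also reached 10 CPM. The epithelial list (12 genes) summed to 8199 CPM in epithelial nuclei, where 11 genes reached 10 CPM and Trps1 alone gave 5382 CPM. It summed to 1602 CPM in macrophage nuclei, where 4 genes reached 10 CPM and Trps1 alone gave 1357 CPM. Krt5 had 1 UMI in epithelial and 2 in macrophage nuclei. Esrp1, an epithelial splicing factor, had 404 CPM in epithelial nuclei and 16.8 CPM in macrophage nuclei. After each nucleus was thinned to 1000 UMIs, which left out 29 macrophage and 164 epithelial nuclei, Dock2, a regulator of leukocyte movement, was seen in 78.3% of macrophage and 7.04% of epithelial nuclei, and Cybb, of the phagocyte oxidase, in 38.8% and 8.54%. Esrp1 was then seen in 0.978% and 32.2%. Before thinning these shares were 94.7% and 19.6% for Dock2, 70.3% and 19.6% for Cybb, and 2.85% and 41.1% for Esrp1. Low levels of a gene in the other set can therefore be read against the macrophage list, whose level in epithelial nuclei was 0.114 of that in macrophage nuclei.

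Of the 68 genes, 51 had a UMI in macrophage nuclei and 52 in epithelial nuclei. At 10 CPM or more, 32 were found in macrophage nuclei, where 26.7% of all genes in the matrix reached that level, and 33 in epithelial nuclei, where 31.1% did. Both sets shared 28 of these genes. A further 4 reached 10 CPM in macrophage nuclei only, 5 in epithelial nuclei only, and 31 in neither. In sum, TRIM genes took 2127 CPM (2080 to 2174) in macrophage nuclei and 2197 CPM (2129 to 2265) in epithelial nuclei, so the whole family differed little while its members differed widely. There were 7 genes at 0 UMIs in all nuclei kept (Trim40, Trim50, Trim52, Trim61, Trim63, Trim75 and Trim80). A count of 0 over all nuclei kept has an exact upper limit of 0.502 CPM. Trim63 encodes a muscle RING finger protein. Trim9, Trim31 and Trim58 had UMIs only in nuclei outside both sets.

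Of the 37 TRIM genes with 30 or more UMIs over both sets, 6 were at least 2-fold higher in macrophage nuclei (16.5% of all genes tested were) and 9 at least 2-fold higher in epithelial nuclei (27.1% of all genes were). Both counts lie close to those background shares. The median ratio of macrophage to epithelial level was 0.986 over the TRIM genes and 0.792 over all genes tested. The 6 were Trim17, Trim25, Trim35, Trim36, Trim55 and Trim69, and the 9 were Trim2, Trim6, Trim7, Trim16, Trim33, Trim34a, Trim46, Trim59 and Trim68.

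**Figure D1:**
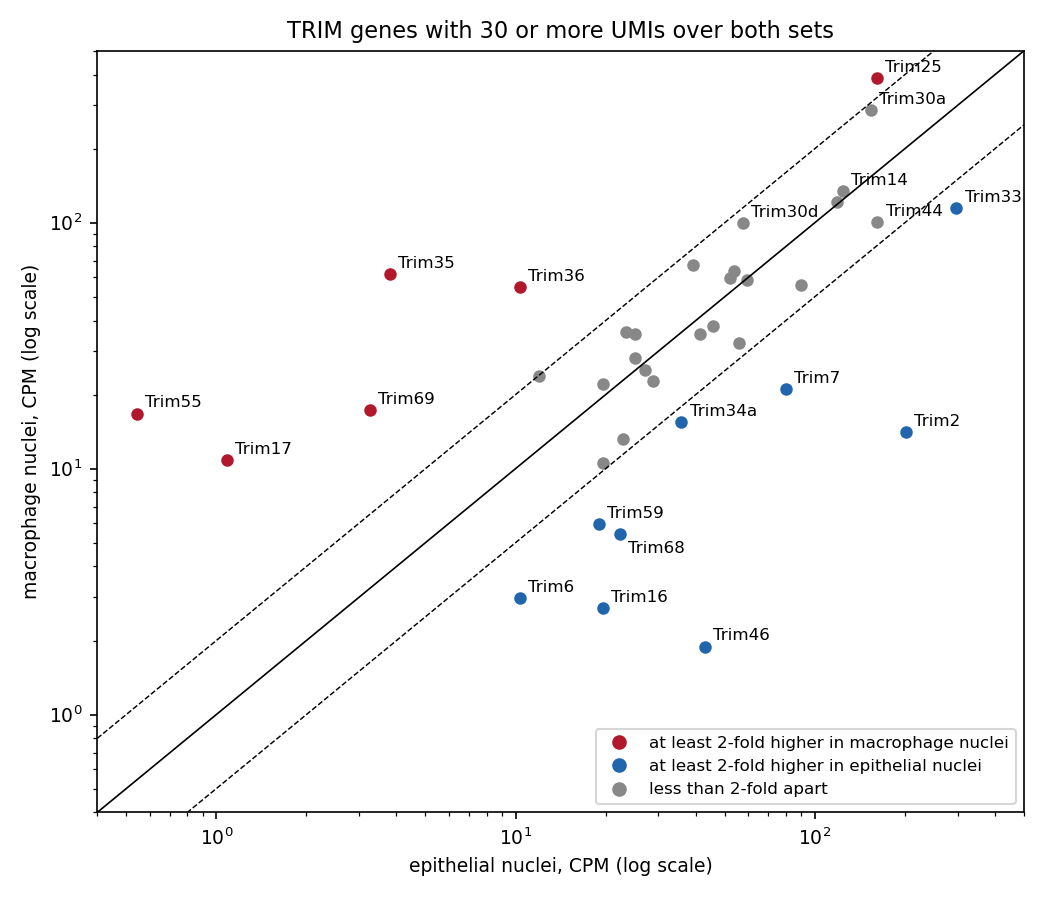
Each point is 1 of the 37 TRIM genes with 30 or more UMIs over both sets, with its level in epithelial nuclei (x axis, CPM, log scale) and in macrophage nuclei (y axis, CPM, log scale). The solid line marks equal levels and the dashed lines 2-fold differences; the 6 red genes lie above and the 9 blue genes below the dashed lines.

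Among the genes higher in macrophage nuclei, Trim35 was nearly absent from epithelial nuclei. Trim35 is a PRY-SPRY member (chromosome 14, 66297031 to 66311424, plus strand) known to act in innate signalling. It had 229 UMIs in macrophage nuclei (61.9 CPM, 54.1 to 70.4) and 7 in epithelial nuclei (3.80 CPM, 1.53 to 7.83), a 16.3-fold difference (7.77 to 40.9). In macrophage nuclei its level was 67.8 CPM in well 1 and 49.0 CPM in well 2, and its epithelial level was 0.0614 of its macrophage level, below the 0.114 of the macrophage marker list. As a mean over nuclei of each nucleus's CPM, the ratio was 3.58, and with 3 or more UMIs asked of the epithelial rule it was 53.4.

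Trim36 followed the same order. It encodes a COS-box protein that binds microtubules (chromosome 18, 46165300 to 46212607, minus strand). It had 203 UMIs in macrophage nuclei (54.9 CPM, 47.6 to 62.9) and 19 in epithelial nuclei (10.3 CPM, 6.21 to 16.1), a ratio of 5.32 (3.32 to 9.01). The ratio was 5.83 in well 1 and 5.80 in well 2, where epithelial nuclei held 1 UMI, and 2.33 as a mean over nuclei.

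Trim25, the ligase of the RIG-I pathway, had the highest level per gene length of the family in macrophage nuclei. It lies on chromosome 11, 88999376 to 89020293, plus strand. Scaled to 10 kb of gene span, it stood at 185 CPM per 10 kb. Next came Trim41 (54.3), Trim56 (52.9), Trim30a (50.9), Trim8 (44.4) and Trim35 (43.0). Whether introns were counted is not given, so whether this scaling is apt is not known. In epithelial nuclei Trim56, which acts in antiviral signalling, had 85.3 CPM per 10 kb and Trim25 77.1. Unscaled, Trim25 had 387 CPM (367 to 407) in macrophage nuclei and 161 CPM (144 to 181) in epithelial nuclei, a ratio of 2.40 (2.11 to 2.73). The ratio was 2.07 in well 1 and 6.81 in well 2, where epithelial nuclei held 10 UMIs. After thinning, 24.8% of macrophage nuclei and 11.1% of epithelial nuclei had a Trim25 UMI. The same shares before thinning were 43.5% and 27.8%.

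Trim55 encodes a muscle RING finger protein of the sarcomere. The gene (chromosome 3, 19644474 to 19692421, plus strand) overlaps BC002189 on the same strand, which had 2 UMIs in macrophage nuclei. Trim55 had 62 UMIs in 44 of 1052 macrophage nuclei (16.8 CPM, 12.8 to 21.5) and 1 UMI in epithelial nuclei, a ratio of 30.9 (5.34 to 1238) that rests on that single count and was 5.39 as a mean over nuclei. All 62 UMIs lay in well 1 (24.4 CPM), and well 2 had 0 UMIs in 325 macrophage nuclei. No nucleus held more than 4 of them. The muscle markers Myh4 and Acta1 were at 0 in macrophage nuclei, and the 5 muscle markers together had 7 UMIs there. Its relatives Trim54 and Trim63 had 0 UMIs in macrophage nuclei.

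Trim69 and Trim17 were found in few nuclei. Trim69, a RING protein with a PRY-SPRY domain, lies on chromosome 2, 122160700 to 122179027, overlapping Patl2 on the other strand, with B2m within 10 kb on its own strand. It had 64 UMIs in 30 macrophage nuclei (17.3 CPM, 13.3 to 22.1) and 6 in epithelial nuclei, a ratio of 5.31 (2.31 to 15.0), or 3.47 in well 1. Patl2 had 50 and 9 UMIs, a ratio of 2.76. Whether the counting used strand is not given in the sources used here, so reads of Trim69 and Patl2 cannot be told apart with certainty. Trim17, known from neurons, overlaps the histone gene Hist3h2a on the same strand. It had 40 UMIs in macrophage nuclei (10.8 CPM) and 2 in epithelial nuclei, a ratio of 9.95 (2.58 to 85.0) that was 6.11 as a mean over nuclei, while Hist3h2a had 38 in each.

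On the epithelial side, the widest differences were those of Trim46 and Trim2, both known from axons. Trim2, an NHL-repeat ligase (chromosome 3, 84160439 to 84306877, minus strand), had 370 UMIs in epithelial nuclei (201 CPM, 181 to 222) and 52 in macrophage nuclei (14.1 CPM, 10.5 to 18.4), a 14.3-fold difference. The macrophage level was 0.0699 of the epithelial one (0.0513 to 0.0937), and 0.301 when nuclei of both rules were counted in both sets. Trim46, a microtubule organiser of the axon (chromosome 3, 89234177 to 89246309, minus strand), had 79 UMIs in epithelial nuclei (42.9 CPM, 34.0 to 53.5) and 7 in macrophage nuclei (1.89 CPM), a 22.7-fold difference (a ratio of 0.0441, or 0.194 with nuclei of both rules in both sets). Trim46 overlaps Krtcap2 on the other strand and lies within 10 kb of Muc1, a gene of glandular epithelium. Krtcap2 was 2.53-fold and Muc1 15.0-fold higher in epithelial nuclei. Of the epithelial markers that the rule did not use, Esrp1 stood in macrophage nuclei at 0.0414 of its epithelial level and Trps1 at 0.252. The whole list of 12 epithelial markers was 5.12-fold higher in epithelial nuclei (4.965 to 5.274).

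The transcription regulators split. Trim33, a PHD-bromodomain protein of the TGF-beta pathway, had 297 CPM (273 to 323) in epithelial nuclei and 115 CPM (104 to 126) in macrophage nuclei, 2.59-fold apart. The macrophage to epithelial ratio of 0.387 became 0.517 as a mean over nuclei, 0.578 in well 2 and 0.530 with nuclei of both rules in both sets, each short of 2-fold. Its relatives did not reach 2-fold: Trim24 had 122 and 119 CPM in macrophage and epithelial nuclei, a ratio of 1.03 (0.870 to 1.21), and Trim28, the corepressor KAP1, had 28.1 and 24.98 CPM, 1.13 (0.788 to 1.63).

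A further 6 members were at least 2-fold higher in epithelial nuclei. Trim7, which binds glycogenin, had 79.8 CPM in epithelial and 21.1 CPM in macrophage nuclei, 3.79-fold apart. Trim16 (7.24-fold), Trim68 (4.12-fold), Trim6 (3.47-fold) and Trim59 (3.20-fold) had 19 to 41 UMIs in epithelial nuclei. Trim34a was 2.33-fold higher there. With nuclei of both rules in both sets, the macrophage to epithelial ratios of Trim7, Trim16, Trim59 and Trim68 lay between 0.295 and 0.473. The Trim6 ratio of 0.288 became 0.685 as a mean over nuclei, and that of Trim34a went from 0.430 to 0.538, or 0.562 with nuclei of both rules in both sets. The Trim34a ratio was 2.14 in well 2, on 1 epithelial UMI.

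Trim44 (101 and 162 CPM in macrophage and epithelial nuclei), Trim14 (135 and 124 CPM), Trim12a (63.5 and 53.8), Trim41 (59.4 and 52.1), Trim26 (58.4 and 59.2), Trim56 (55.9 and 90.1) and Trim8 (67.3 and 39.1) were common to both sets and less than 2-fold apart. So were Trim3, Trim5, Trim11, Trim12c, Trim21, Trim23, Trim27, Trim28, Trim37, Trim39, Trim47 and Trim65, with 10.5 to 55.9 CPM. Trim14 acts on mitochondria in antiviral signalling, and Trim8 in cytokine signalling. Trim65 came nearest to the 2-fold line, with 23.8 and 12.0 CPM (1.99, 1.24 to 3.34).

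By the C-terminal domain, a first group held 12 genes: the 10 neighbours on chromosome 7, described next, with Trim21 and Trim68 of the same chromosome. They were grouped as PRY-SPRY genes, but whether Trim12a has the domain was not checked. These 12 genes summed to 537 CPM in macrophage and 400.2 CPM in epithelial nuclei (ratio 1.34, 1.23 to 1.46). The 26 other PRY-SPRY genes, Trim72 of chromosome 7 among them, summed to 890 and 660 CPM (1.35). The 4 NHL-repeat genes summed to 53.5 and 230 CPM (0.232, 0.195 to 0.276), mostly through Trim2. The 4 PHD-bromodomain genes summed to 265 and 441 CPM (0.600, 0.546 to 0.659), mostly through Trim33. These groups were drawn up from general knowledge with values already known, and they are a description.

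A stretch of chromosome 7 holds 10 TRIM genes side by side, the mouse counterpart of the human TRIM5 region: Trim6, Trim34a, Trim5, Trim12a, Trim34b, Trim12c, Trim30b, Trim30c, Trim30a and Trim30d, from 104218793 to 104507849. Most are PRY-SPRY genes, and many are products of recent duplication. The longest coding transcript of Trim12a had 1531 bases, against 3740 for Trim12c, and whether it encodes the domain was not checked. Over their longest coding transcripts, Trim34a and Trim34b were identical at 98.7% of aligned bases, Trim12c and Trim5 at 96.2%, Trim30a and Trim30d at 86.2%, and Trim12a and Trim12c at 81.7%. The longest shared stretch of Trim30a and Trim30d was 275 bases. Reads from such stretches cannot be given to 1 copy, so levels of these copies are uncertain.

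Promoters of part of this group hold a shared element, shown here because the group's members are known as interferon-induced genes. The core of the interferon-stimulated response element was searched as GAAA and GAAA separated by any 2 bases, on both strands, in RefSeq promoter windows on GRCm38.p6 (250 bases before to 50 after each start). It was found in 3.44% of all 32851 windows. Windows were listed for 53 of the 68 TRIM genes, 67 windows in all, and 10 of these held it. Of the 10 neighbours with Trim21 and Trim68, 12 genes in all and each with a window, 7 held it (Trim5, Trim12a, Trim12c, Trim21, Trim30a, Trim30d and Trim34a), and elsewhere Trim2 and Trim26 did. The 60 bases around it are printed below for 4 copies, 5′ to 3′ along the gene's own strand, with the element in capitals.
Trim30a (chr7:104465190-104465249, minus strand): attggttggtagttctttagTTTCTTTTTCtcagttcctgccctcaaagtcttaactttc
Trim30d (chr7:104507851-104507910, minus strand): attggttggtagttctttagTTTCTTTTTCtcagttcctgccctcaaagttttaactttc
Trim5 (chr7:104288116-104288175, minus strand): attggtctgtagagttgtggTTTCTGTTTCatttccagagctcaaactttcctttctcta
Trim12c (chr7:104353339-104353398, minus strand): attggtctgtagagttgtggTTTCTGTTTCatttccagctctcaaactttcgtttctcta
The element begins 36 bases before the start of Trim30a, 41 before that of Trim30d, 49 before that of Trim5 and 29 before that of Trim12c. In copies not printed it begins after the start: 10 bases in Trim12a and Trim34a, and 13 in Trim21. In another window of Trim30a it begins 2 bases after the start. The stretches of Trim30a and Trim30d differ at 1 of 60 bases, and those of Trim5 and Trim12c at 3, while Trim12a carries the same 60 bases as Trim5. The AP-1 site, searched as TGANTCA on both strands, was in 7.81% of all windows and in 14.9% of TRIM windows, those of Trim30a and Trim30d among them. The NF-kB site was in 8.46% and 7.46%. A match of letters is a description and not a site in use.

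Trim30a, a negative regulator of Toll-like receptor signalling, was the main copy of the group. It had 1058 UMIs in 504 of 1052 macrophage nuclei (286 CPM, 269 to 304) and 283 UMIs in 84 of 363 epithelial nuclei (154 CPM, 136 to 173). The ratio of 1.86 (1.63 to 2.13) did not reach 2-fold. It was 1.93 in well 1 and 15.4 in well 2, where epithelial nuclei held 2 UMIs. The epithelial level was 0.538 of the macrophage level, above the 0.114 of the macrophage marker list. After thinning, 21.0% of macrophage and 13.1% of epithelial nuclei had a Trim30a UMI, against 47.9% and 23.1% before.

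Trim30d followed Trim30a, with 99.7 and 57.6 CPM in macrophage and epithelial nuclei, a ratio of 1.73 (1.39 to 2.17). Trim30b had 17 UMIs in macrophage nuclei (4.59 CPM) and 0 in epithelial nuclei, 2.82-fold higher when 3 counts stand for the 0. Trim30c had 8 and 0 UMIs, and 7 of the 8 lay in resident-like nuclei, described below. Trim5 (22.2 and 19.6 CPM), Trim12a and Trim12c (25.1 and 27.1 CPM) had ratios of 0.926 to 1.18, and Trim34b had 1 UMI over both sets. In sum, the 10 genes took 521 CPM (498 to 545) in macrophage nuclei and 358 CPM (332 to 387) in epithelial nuclei.

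**Figure D2:**
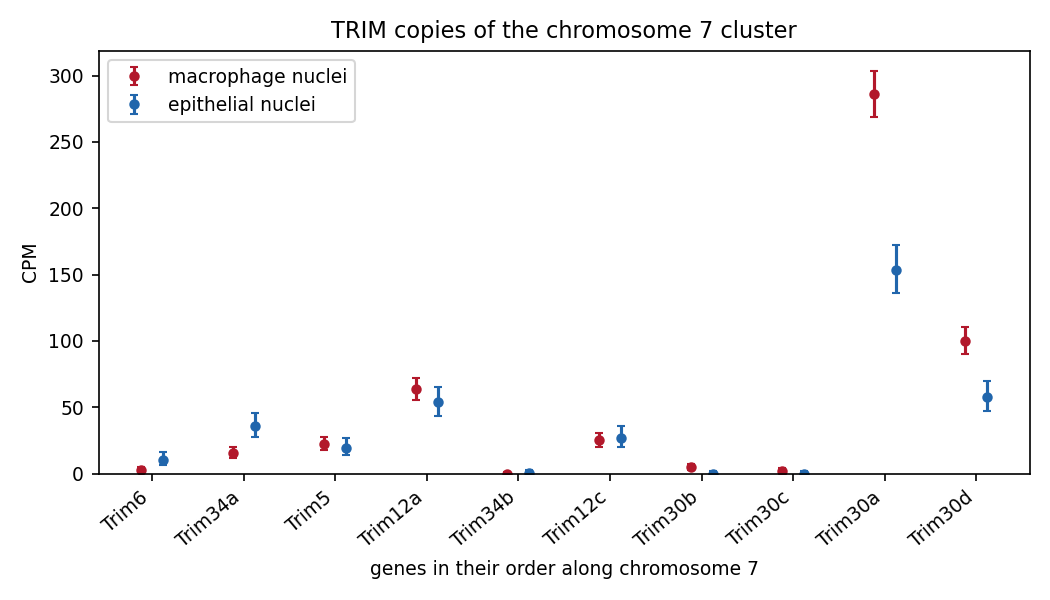
Levels (y axis, CPM) of the 10 neighbouring TRIM genes of chromosome 7, in their order along the chromosome (x axis), in macrophage nuclei (red) and epithelial nuclei (blue), with exact 95% Poisson intervals. Trim30a stands highest in both sets, at 286 and 154 CPM, and Trim34b, Trim30b and Trim30c lie under 10 CPM.

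As a set, other interferon-induced genes did not follow that order. Of all genes tested, 16.5% were at least 2-fold higher in macrophage nuclei and 27.1% in epithelial nuclei. Of 18 listed genes, 3 were at least 2-fold higher in macrophage nuclei (Ifi204, Cxcl10 and Sp100) and 8 in epithelial nuclei, among them Irf7 (175 against 47.0 CPM), Ifit1 (113 against 24.3 CPM) and Oasl2 (239 against 76.5 CPM). Their median ratio of macrophage to epithelial level was 0.580, against 0.792 over all genes tested. Of 9 ubiquitin E1 and E2 genes, which supply the RING ligases, 0 passed 2-fold in either direction, with a median ratio of 1.07. Of 13 innate signalling genes, Traf3 (3.08-fold) and Tbk1 (2.06-fold) were higher in macrophage nuclei, and Ddx58, which encodes RIG-I, the target of TRIM25, was at 38.4 CPM there against 161 CPM in epithelial nuclei. Of 8 autophagy partners, Sqstm1 was higher in macrophage nuclei, and Ulk1 and Optn in epithelial nuclei. Among TRIM proteins with other symbols, Mid2 stood at 7.84 and 137 CPM in macrophage and epithelial nuclei, while Mid1 and Pml were less than 2-fold apart.

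Macrophage nuclei were split into states by other genes, the first rule met being kept: 29 cycling nuclei, 196 resident-like (F13a1, Mrc1, Lyve1), 202 inflammatory (Il1b, Nlrp3), 42 lipid-associated (Gpnmb, Spp1), 34 with high Mmp12, 108 with high immediate-early genes (Fos, Jun, Atf3), and 441 remaining nuclei that met no state rule. TRIM genes entered none of these rules. The wells filled them unequally: 167 of the 196 resident-like nuclei lay in well 2, and 182 of the 202 inflammatory nuclei in well 1. In sum, TRIM genes took 1807 CPM (nuclei with high Mmp12) to 2275 CPM (inflammatory nuclei). Among 32 members with 30 or more UMIs in macrophage nuclei, 10 were at least 2-fold higher in some state, where 35.8% of all genes were. With at least 10 UMIs in the state, 9 were (Trim2, Trim5, Trim7, Trim12c, Trim17, Trim25, Trim26, Trim55 and Trim69), and 25% of all genes. The tenth, Trim21, had 3 UMIs in cycling nuclei. Both counts are near their background, and Trim25 alone among the 9 rests on over 100 UMIs in the state.

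Trim25 differed between the states. Its level was 752 CPM (685 to 822) in inflammatory, 679 CPM (598 to 766) in immediate-early, 622 CPM (510 to 753) in lipid-associated, 410 CPM (363 to 461) in resident-like, 312 CPM (218 to 431) in cycling and 259 CPM (177 to 366) in Mmp12-high nuclei. In the remaining nuclei it was 154 CPM (136 to 175), near the epithelial 161 CPM. The 3 highest states overlapped in their intervals, as did resident-like, cycling and Mmp12-high nuclei in theirs. Against all other macrophage nuclei, it was 2.41-fold higher in inflammatory nuclei (2.15 to 2.69), where 3.89% of all genes were at least 2-fold higher. In the remaining nuclei its ratio was 0.274 (0.237 to 0.314), where 6.63% of all genes were at least 2-fold lower. The inflammatory ratio was 2.89 in well 1 and 2.72 in well 2, and 1.87 when the state rules were applied in reverse order. The ratio in the remaining nuclei was 0.213 in well 1 and 0.586 in well 2, the latter short of 2-fold. After thinning, the share of nuclei with a Trim25 UMI was 45.1% (38.0 to 52.4) in inflammatory and 12.9% (9.92 to 16.5) in remaining nuclei. It was 31.6% in lipid-associated, 30.7% in immediate-early, 28.4% in resident-like, 23.5% in Mmp12-high and 14.3% (4.03 to 32.7) in cycling nuclei. By this share, lipid-associated and immediate-early nuclei lay within the interval of resident-like nuclei (22.1 to 35.3). In lipid-associated nuclei 27 of the 106 UMIs lay in 1 nucleus. Its 472 UMIs in inflammatory nuclei were spread over 136 of the 202 nuclei, with at most 35 in one.

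**Figure D3:**
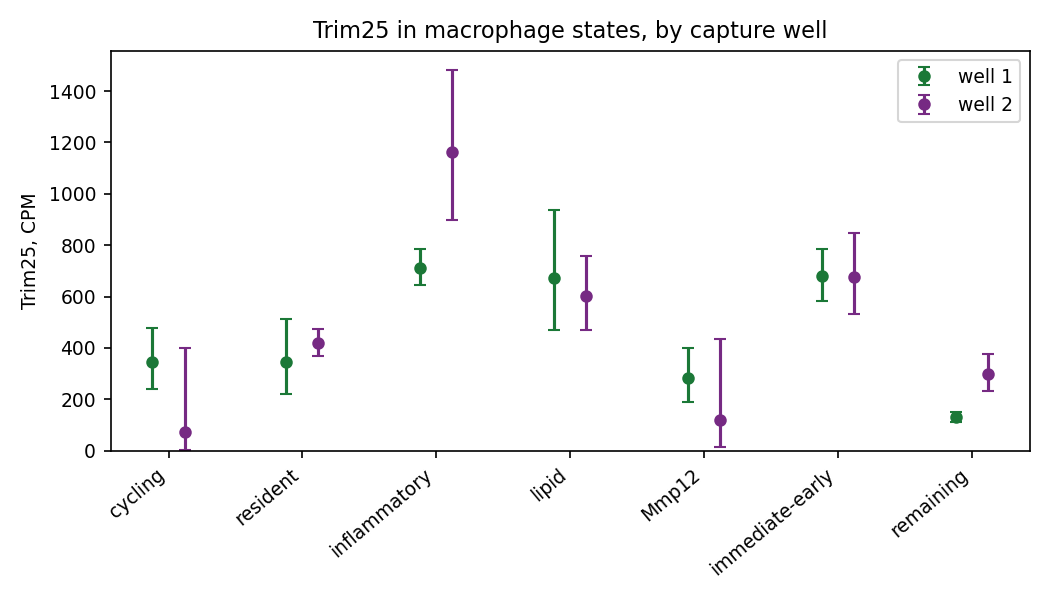
Trim25 level (y axis, CPM) in 7 sets of macrophage nuclei (x axis), in well 1 (green) and well 2 (purple), with exact 95% Poisson intervals; the wells are not mapped to a genotype. In both wells inflammatory nuclei stand above the remaining nuclei, at 711 against 130 CPM in well 1 and 1164 against 297 CPM in well 2.

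Of all genes tested, 3.89% were at least 2-fold higher in inflammatory nuclei and 17.2% at least 2-fold lower. Among 13 innate signalling genes, 1 was at least 2-fold higher there (Traf3, 890 CPM) and 2 were lower (Tmem173 and Ikbke). Their median ratio was 0.720 against 0.782 over all genes tested. Of 8 autophagy partners, Sqstm1 was higher (834 CPM) and 0 were lower. Among the interferon-induced genes, 1 of 18 was at least 2-fold higher (Isg15) and 1 was lower (Oasl2), and 0 of 9 E1 and E2 genes were called in either direction.

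Trim30a lay between 147 CPM (lipid-associated) and 314 CPM (inflammatory), with 309 CPM in the remaining and 301 CPM in resident-like nuclei, and was not called in any state against the other macrophage nuclei. After thinning, 7.89% (1.66 to 21.4) of lipid-associated and 24.6% (18.7 to 31.3) of inflammatory nuclei had a Trim30a UMI. In lipid-associated nuclei its level was 308 CPM in well 1 (16 UMIs) and 76.1 CPM in well 2 (9 UMIs). In immediate-early nuclei it was 304 CPM in well 1 and 35.6 CPM in well 2. The 10 genes of the chromosome 7 group summed to 598 CPM (560 to 637) in the remaining nuclei and 305 CPM (228 to 400.4) in lipid-associated nuclei.

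**Figure D4:**
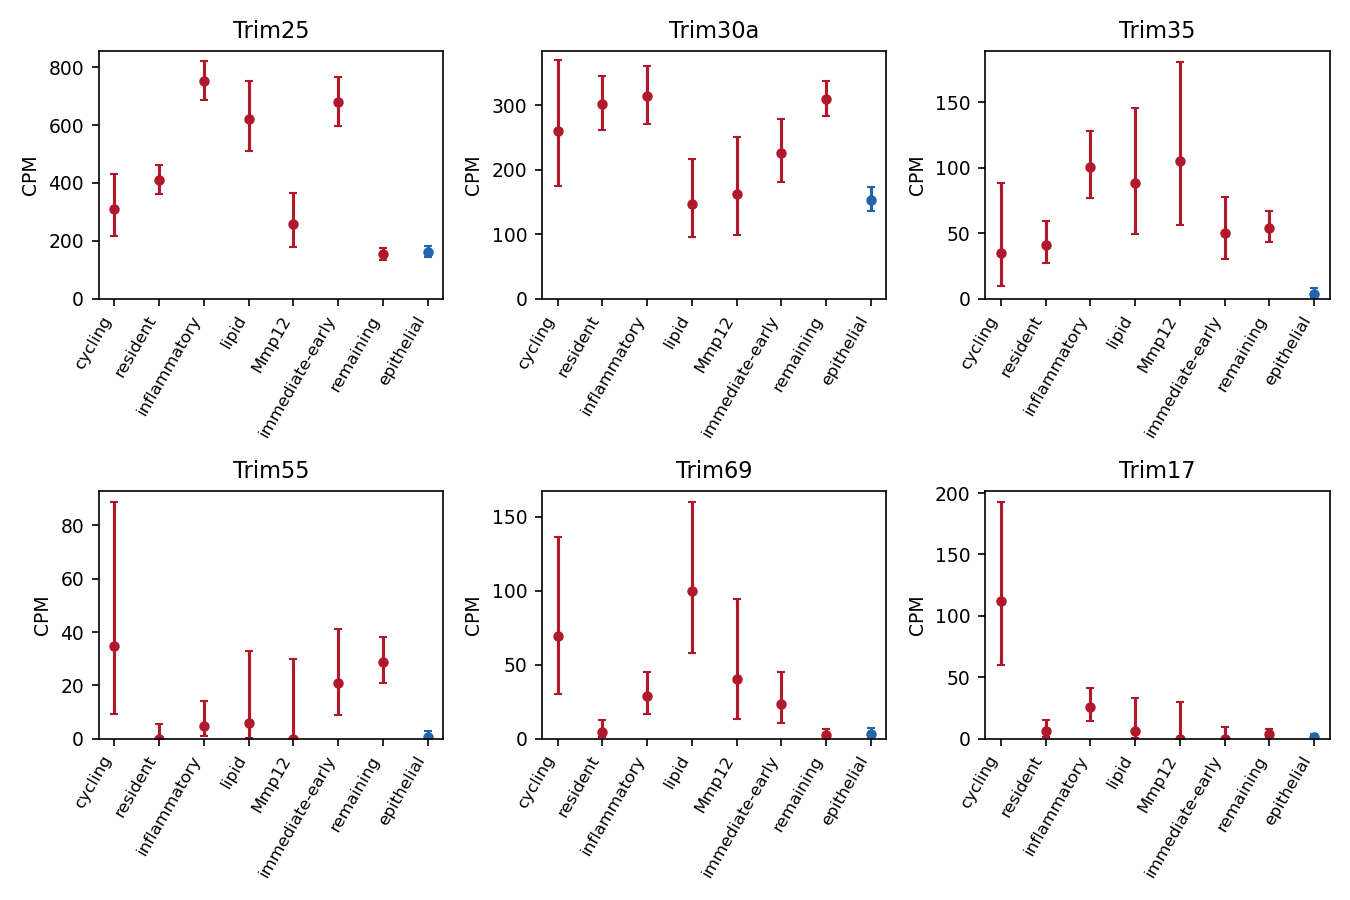
Levels (y axes, CPM) of 6 TRIM genes in 7 sets of macrophage nuclei (red) and in epithelial nuclei (blue), with exact 95% Poisson intervals. Trim25 is high in inflammatory, immediate-early and lipid-associated nuclei and low in the remaining ones, Trim30a runs from 147 to 314 CPM over the macrophage sets, and the intervals of Trim55, Trim69 and Trim17 are wide in the small states.

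Trim55 had 46 of its 62 UMIs in the remaining nuclei, at 28.7 CPM against 7.62 CPM in the other macrophage nuclei, a ratio of 3.77 (2.10 to 7.13). In that set 4.38% of all genes were at least 2-fold higher. Within well 1, which held all its UMIs, the ratio was 2.47. Resident-like nuclei had 0 UMIs, but only 29 of them lay in well 1. Inflammatory nuclei had 3 UMIs (4.78 CPM), a ratio of 0.249 (0.0499 to 0.763), where 17.2% of all genes were at least 2-fold lower. The remaining nuclei also held 74 of the 76 T cell marker UMIs of macrophage nuclei, and 5 of these nuclei had 3 or more; their part in the Trim55 level was not tested.

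Trim69 was 7.50-fold higher in lipid-associated nuclei (4.04 to 13.3), where 4.08% of all genes were at least 2-fold higher. It had 17 UMIs there in 6 of 42 nuclei, all in well 2, and the ratio was 5.38 without the nucleus that held most. In reverse order of the state rules it was 1.01. In the remaining nuclei its ratio was 0.0874 (0.0231 to 0.236), with 4 UMIs, and 0.463 in well 2. In resident-like nuclei it was 0.218 (0.0438 to 0.668). Patl2, which overlaps Trim69, had 10 of its 50 macrophage UMIs in lipid-associated nuclei and 8 in the remaining nuclei. Its part in the Trim69 level was not tested.

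Trim17 was 14.9-fold higher in cycling nuclei (7.08 to 30.0), where 2.91% of all genes were higher, but 9 of its 13 UMIs there came from 1 nucleus of 3676 UMIs. Without that nucleus the ratio was 4.75, and in reverse order of the rules 1.501. Hist3h2a, its overlapping neighbour, had 1 of its 38 macrophage UMIs in cycling nuclei and 15 in inflammatory nuclei. Its part in the Trim17 level was not tested. In inflammatory nuclei Trim17 was 3.26-fold higher (1.62 to 6.40), with 16 UMIs in 7 nuclei, 2.05-fold without the top nucleus and 0.674 in reverse order. Trim26, a ligase of antiviral signalling, was 2.15-fold higher in cycling nuclei (1.16 to 3.69), and 1.79-fold without its top nucleus. No TRIM gene was at least 2-fold lower in cycling nuclei, where 9.92% of all genes were.

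Trim2 was 3.53-fold higher in immediate-early nuclei (1.80 to 6.58), where 3.61% of all genes were higher, but 11 of its 15 UMIs lay in 1 nucleus of 20563 UMIs that also held 17 UMIs of the epithelial rule genes. Without it the ratio was 0.994. Fibroblast markers also lay mostly in this state, 35 of 58 UMIs, with 30 in 1 nucleus. The nucleus with 11 Trim2 UMIs had 0 CPM of these markers. The part of the fibroblast markers in the levels of this state was not tested. Trim5, Trim12c, Trim26 and Trim56 were at least 2-fold lower there, with ratios of 0.330 to 0.488, where 9.02% of all genes were lower.

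Trim5, Trim12c and Trim7 were 2.05-fold (1.29 to 3.30), 2.28-fold (1.47 to 3.58) and 2.10-fold (1.30 to 3.43) higher in the remaining nuclei. Trim12c and Trim5 share long stretches, and the Trim5 ratio was 0.524 in well 2 and 1.93 without its top nucleus. The Trim7 ratio was 1.30 in well 1, and 1.89 without 1 nucleus of 46519 UMIs that held 6 of its 48 UMIs and 44 UMIs of the epithelial rule genes. Trim17 was lower in that set, 0.231 (0.0794 to 0.558), and 1.97 in well 2.

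In resident-like nuclei 0 TRIM genes were at least 2-fold higher, where 7.3% of all genes were, and 4 were lower (Trim7, Trim17, Trim55 and Trim69), where 12% were. Trim7 had 0 UMIs there against 78 in the other macrophage nuclei, 5.86-fold lower when 3 counts stand for the 0. By the same measure Trim55 was 4.66-fold lower. These folds mix state with well. In all, 73 of the 78 Trim7 UMIs and all those of Trim55 lay in well 1, which held 29 of the 196 resident-like nuclei. Within well 1 the upper limit of the ratio was 1.84 for Trim7 and 2.17 for Trim55, so a lower level there was not detectable at this depth. In well 2 the limit was 0.987 for Trim7, on 5 UMIs in the other macrophage nuclei. In inflammatory nuclei 6 of 32 TRIM genes were at least 2-fold lower, near the 17.2% of all genes that were. Beside Trim55 these were Trim2, Trim12c, Trim21, Trim23 and Trim33, with ratios of 0.408 to 0.497. Trim21, Trim2 and Trim12c had only 3, 4 and 8 UMIs there. The Trim33 ratio was 0.494 (0.346 to 0.688), and 0.633 in reverse order of the rules.

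In the lipid-associated and Mmp12-high sets the calls rested on few counts. In lipid-associated nuclei 7 genes were at least 2-fold lower (Trim7, Trim36, Trim39, Trim44, Trim47, Trim55 and Trim65), where 13.9% of all genes were, on 1 to 6 UMIs each. The intervals of all but Trim44 (0.340, 0.124 to 0.747) reached 1. In Mmp12-high nuclei 0 genes were higher, where 1.77% of all genes were, and Trim3, Trim8, Trim28 and Trim37 were lower, where 12.5% were. These had 1 to 4 UMIs there, and all 4 intervals reached 1.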

How the data were processed

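The authors deposited 1 matrix of whole-number UMI counts per gene and barcode, with gene and barcode lists. Per the submitters' processing notes, Cell Ranger 5.0 was run on mm10; per the file headers, the version was 5.0.1. Not given in the sources used here were the annotation, the counting of introns and the calling of nuclei; counting introns would favour long genes. Libraries were 10x 3' v3 with 11 cycles of cDNA amplification, per the labels' protocols, of nuclei sorted from living CD45, F4/80 and Vcam positive cells.

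Barcodes with under 500 UMIs, under 300 genes or over 5% mitochondrial UMIs were removed (21 of 1838). Scrublet in scanpy 1.11.5, run per well, removed 0 doublets in well 1 and 5 in well 2, a low yield, so doublets may remain. Counts were summed per set and scaled to CPM (numpy 2.4.6, pandas 2.3.3 and scipy 1.17.1 under Python 3.11.15). Intervals are exact: Poisson for sums, conditional binomial for ratios and Clopper-Pearson for shares. With 1 pooled sample there is no test. A gene counted as different with 30 UMIs over both sets, a 2-fold ratio and 10 UMIs in the higher set. A count of 0 was replaced by 3 only where the fold then kept its direction, and such folds are not exact limits. Text names Trim30a, Trim55, members at 20 CPM in either set, members called, and the Trim30, Trim12 and Trim34 copies; members named beside these (at 0, or as relatives) were chosen after their values were seen. Members, lists and rules were chosen with earlier results of these data known. The calling was tested on simulated data.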

Additional observations from a re-analysis of the deposited data

How the results depend on the processing

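The counts of TRIM genes at 10 CPM stayed within 1.5 times under all alternatives tried for them. Well 2 alone, with 30 epithelial nuclei, gave 12 genes higher in macrophage and 1 higher in epithelial nuclei, against 6 and 9. Requiring 100 UMIs over both sets left 3 and 4, and 2 genes higher in some state against 10. Requiring 10 gave 16 in some state. Shares over all genes are not given for well 2 alone or for these minimums. These counts therefore cannot be read as particular to TRIM genes. Of 671 ratios of named genes under other settings, 606 stayed within the interval of the value reported, 52 left it in the same direction and 13 crossed 1. With nuclei of both rules in both sets, lipid-associated ratios became 1.21 for Trim44, 1.65 for Trim7 and 1.09 for Trim39. With state rules at halved cuts they became 1.19 for Trim44 and 1.45 for Trim7. In well 1 alone Trim47 was at 1.02 in lipid-associated nuclei. In well 2 alone Trim34a was at 2.14 against epithelial nuclei, Trim8 at 1.49 in Mmp12-high nuclei, and Trim5 at 0.524 and Trim17 at 1.97 in the remaining nuclei. In reverse order of the rules the inflammatory ratios were 1.18 for Trim12c and 0.674 for Trim17. Without the nucleus with most UMIs, an alternative chosen after seeing the data, Trim2 was at 0.994 in immediate-early nuclei. The cause of these changes was not tested. Depth limits the small states, where 3 counts correspond to 26.0 CPM in cycling and 24.3 CPM in Mmp12-high nuclei.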
